A study of Homo sapiens with 3 samples.

Results

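MATR3 (matrin 3) is a nuclear protein that binds both RNA and DNA, and mutations in its gene are among the inherited causes of amyotrophic lateral sclerosis (ALS). The transcripts of 6 other genes linked to ALS were followed here in the MATR3 contact maps: TARDBP, EWSR1, TAF15, ATXN2, TIA1 and VCP. Members were the clusters that the deposited tables assign to these gene names with a HAVANA or ENSEMBL annotation. They numbered 53 of 87230 clusters in the first wild-type library (WT-rep1), 17 of 27155 in the second (WT-rep2) and 0 of 842 in the MATR3 knockout (KO), or 70 of 115227 in all. Clusters were found in 4 of the 6 genes. No cluster carried the name TARDBP or TAF15.

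The material was HAP1, a near-haploid human cell line derived from the KBM-7 line of a chronic myeloid leukaemia. PAR-CLIP was done on 2 libraries of wild-type HAP1 cells and 1 library of a HAP1 line in which MATR3 is knocked out, the negative control; both lines were bought from 1 supplier, and the labels give no other treatment or allele. In PAR-CLIP, 4-thiouridine built into RNA is crosslinked to a bound protein by UV light, and it is then read as C in place of T. RNase T1, an enzyme that cleaves RNA behind G, trimmed the fragments, and per the labels complexes were taken up on anti-FLAG beads although no label records a tag on MATR3.

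Most of these proteins act on RNA. EWSR1 and TAF15 belong to the FET family of nuclear RNA-binding proteins that act in transcription and splicing. TARDBP encodes TDP-43, a nuclear protein that binds GU repeats, represses cryptic exons and limits its own messenger RNA. TIA1 binds U-rich RNA, promotes the use of weak 5' splice sites and is a core protein of stress granules. ATXN2 binds poly(A)-binding protein and messenger RNA in the cytoplasm and carries a polyglutamine tract whose intermediate expansions raise the risk of ALS. VCP is not an RNA-binding protein: it is an AAA ATPase that extracts ubiquitin-tagged proteins from complexes and membranes, and it helps to clear stress granules. The label of an RNA-binding group therefore covers 5 of the 6 genes.

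A cluster was found at an overlapping place in both WT libraries 5 times in these genes. The sequences of those 5 places are printed because they hold the clusters seen in both libraries. Support in WT-rep2 was thin. Each of the 5 had 2 converted positions there, the lowest number in that library, and 1 to 4 distinct read sequences. The 7 reads of the TIA1 cluster at chr2:70246451-70246487 were all of 1 read sequence. Positions are those of the deposited tables, for which the submitters' processing notes list the builds hg38 and GRCh38.p5. Sequences run 5′ to 3′ in the sense of the transcript, with T for U. Capitals mark the bases shared by the clusters of both libraries.
EWSR1, chr22:29273968-29274030, plus strand, WT-rep1, 147 reads: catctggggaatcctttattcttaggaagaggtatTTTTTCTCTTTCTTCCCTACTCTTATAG
EWSR1, chr22:29274003-29274030, plus strand, WT-rep2, 10 reads: TTTTTCTCTTTCTTCCCTACTCTTATAG
TIA1, chr2:70220747-70220783, minus strand, 52 reads in WT-rep1 and 55 in WT-rep2: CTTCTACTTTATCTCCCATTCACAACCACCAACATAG
TIA1, chr2:70246451-70246487, minus strand, 50 and 7 reads: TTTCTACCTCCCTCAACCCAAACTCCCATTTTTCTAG
TIA1, chr2:70247947-70247972, minus strand, 15 and 10 reads: AAATTCTTCCTTTCATTTTCTTCTCG
ATXN2, chr12:111501225-111501252, minus strand, WT-rep1, 29 reads: AAACTTAAAAACCTCATCACTTATTTTG
ATXN2, chr12:111501225-111501253, minus strand, WT-rep2, 13 reads: cAAACTTAAAAACCTCATCACTTATTTTG

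All 5 places were annotated as intronic in both libraries. The 3 TIA1 pairs had the same start and the same end in both libraries, and the ATXN2 pair differed by a single base at its 5' end. In EWSR1 the WT-rep2 cluster was the 3' part of the longer WT-rep1 cluster. The 3' end was thus the same in all 5 pairs, and both ends in 3 of 5. Over all 5310 overlapping pairs of the WT libraries, 56.6% had the same 3' end and 33.4% had both ends the same.

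The strongest cluster by reads of each gene that had no counterpart in the other WT library is printed next. For VCP, which had no overlapping pair, that of each library is printed. In the order printed, their distinct read sequences numbered 5 (TIA1), 17 (EWSR1), 2 (ATXN2), and 9 and 2 (VCP). Each TCTT is in capitals, the word recognised by the splicing regulator PTBP1, a known partner of MATR3.
TIA1, chr2:70218766-70218798, minus strand, WT-rep2, 180 reads: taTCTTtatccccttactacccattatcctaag
EWSR1, chr22:29272141-29272171, plus strand, WT-rep1, 146 reads: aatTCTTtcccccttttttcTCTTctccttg
ATXN2, chr12:111473514-111473548, minus strand, WT-rep1, 62 reads: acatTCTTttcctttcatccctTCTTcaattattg
VCP, chr9:35067206-35067240, minus strand, WT-rep1, 115 reads: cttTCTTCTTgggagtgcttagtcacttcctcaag
VCP, chr9:35071031-35071064, minus strand, WT-rep2, 27 reads: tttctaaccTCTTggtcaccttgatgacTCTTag

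The set made up nearly the same share of the clusters of both WT libraries, but a lower share of the reads in WT-rep2. Its clusters made up 0.0608% of all clusters in WT-rep1 and 0.0626% in WT-rep2, a mean of 0.0617 ± 0.00130% (SD, n = 2). In reads, the set held 1630 of 2668797 (0.0611%) and 625 of 1558995 (0.0401%). The numbers of clusters themselves, 53 and 17, averaged 35.0 ± 25.5 (SD, n = 2). WT-rep2 supplied 24.3% of the 70 member clusters (exact 95% interval 14.8 to 36.0%) and 23.7% of all 114385 WT clusters. The sums over each table hold reads in called clusters only, so sequencing depth is unknown, and intervals cover counting error only because the reads carry no molecular identifiers in these tables. How much RNA of each gene the cells held was not analysed here, so more transcript and more contact per transcript cannot be told apart.

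No member gene had a cluster in the KO library. Of the 9706 genes that any WT cluster was assigned to, 5.88% had a KO cluster. At the WT shares, a library of 842 clusters would hold 0.512 member clusters by WT-rep1 or 0.527 by WT-rep2, so a difference between KO and WT was not detectable with this number of clusters. The KO cluster nearest to any member cluster on the same strand lay 628 kb from VCP, in an intron of FAM219A, with 627 reads. KO and WT were not tested against each other, since exchanging the labels of 3 libraries gives p-values no lower than 0.333.

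All 4 genes with any cluster had clusters in both WT libraries, against 56.9% of the 9706 genes. That the set had a cluster in 4 of its 6 genes compares with 44.4% of 20052 protein-coding RefSeq genes. EWSR1 had 13 clusters with 499 reads in WT-rep1, 1 cluster with 10 reads in WT-rep2 and none in KO. Its mean was 7.0 ± 8.49 clusters (SD, n = 2), and 13 of the 14 came from WT-rep1. TIA1 had 9 clusters with 341 reads in WT-rep1, 8 with 439 reads in WT-rep2 and none in KO. Its raw numbers lay close together, at 8.50 ± 0.707 clusters (SD, n = 2), although WT-rep2 held far fewer clusters in all. TIA1 was the only one of the 4 genes with more reads in WT-rep2. ATXN2 had 22 clusters with 483 reads, 6 with 134 reads and none, and VCP had 9 with 307 reads, 2 with 42 reads and none. Both thus held fewer clusters in WT-rep2, at 14.0 ± 11.3 (ATXN2) and 5.50 ± 4.95 (VCP) on average (SD, n = 2). As a share of all clusters of WT-rep1 and WT-rep2, ATXN2 was the most alike, at 0.0252% and 0.0221%. TIA1 stood at 0.0103% and 0.0295%, VCP at 0.0103% and 0.00737%, and EWSR1 at 0.0149% and 0.00368%.

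**Figure D1:**
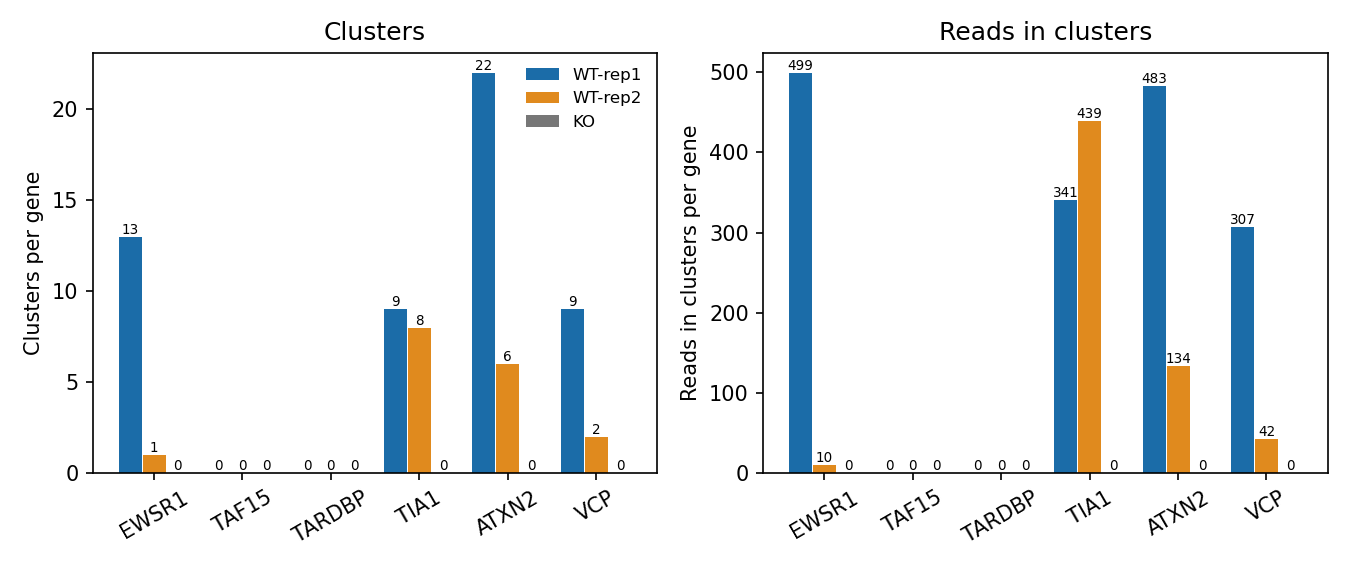
Number of clusters (left) and reads in clusters (right) assigned to each of the 6 genes in WT-rep1, WT-rep2 and KO, with the value above each bar. TIA1 stands at 9 and 8 clusters in the WT libraries, EWSR1 at 13 and 1, and TAF15, TARDBP and the KO library are at 0.

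The split between the WT libraries was set against their sizes. WT-rep2 supplied 1 of the 14 EWSR1 clusters (7.14%, exact 95% interval 0.181 to 33.9%), 6 of 28 in ATXN2 (21.4%, 8.30 to 41.0%), 2 of 11 in VCP (18.2%, 2.28 to 51.8%) and 8 of 17 in TIA1 (47.1%, 23.0 to 72.2%). The share over all clusters, 23.7%, lay inside each of the 4 intervals. The opposite leanings of EWSR1 and TIA1 were therefore within counting error for each gene, and the difference between the genes was not tested.

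Genes of different size were compared per length, using RefSeq gene intervals of GRCh38.p14, in which all 70 clusters lay. VCP, the shortest of the 4 at 16.6 kb, had 54.3 clusters per 100 kb in WT-rep1 and 12.1 in WT-rep2. EWSR1, over 32.3 kb, had 40.3 and 3.10 clusters per 100 kb. TIA1, over 39.4 kb, had 22.9 and 20.3. ATXN2, over 147 kb, had 14.9 and 4.07. The order from high to low was VCP, EWSR1, TIA1, ATXN2 in WT-rep1 and TIA1, VCP, ATXN2, EWSR1 in WT-rep2. The means were 33.2 ± 29.9 (VCP), 21.7 ± 26.3 (EWSR1), 21.6 ± 1.8 (TIA1) and 9.49 ± 7.67 (ATXN2) clusters per 100 kb (SD, n = 2). These values were not scaled to the number of clusters in each library, so the SDs include that difference. Whether VCP, EWSR1 and TIA1 differed from each other was not tested. VCP and TIA1 lay above ATXN2 in both libraries, and EWSR1 did so in WT-rep1 only. All 4 genes lay above the medians of 9.60 and 2.06 clusters per 100 kb over 8234 protein-coding genes with a WT cluster. A single cluster already gives a short gene a high value on this scale.

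TARDBP spans 17.9 kb on chromosome 1 and TAF15 37.8 kb on chromosome 17, and both were at 0 clusters in all 3 libraries, also by position on either strand. Each lies in a stretch without a cluster of any gene. Around TARDBP that stretch was 415 kb long in the WT libraries together, with 3 protein-coding genes wholly inside it, TARDBP among them. Around TAF15 it was 3115 kb long, with 58 protein-coding genes, TAF15 among them. Of the 114078 stretches between neighbouring WT clusters, 1423 were longer than that of TARDBP and 41 were longer than that of TAF15. Genes without a WT cluster were common at these lengths. They made up 60.8% of 2026 protein-coding genes within 20% of the length of TARDBP, and 41.5% of 2025 for TAF15. The KO library had no cluster in either stretch. The tables hold only clusters above a minimum, and neighbouring genes had no cluster either, so the zeros of TARDBP and TAF15 cannot be told apart from a lack of any listed cluster in the region. Whether mapping or the making of the tables set these stretches was not tested, and nothing is read from the zeros about contacts of MATR3 with these transcripts.

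Nearly all member clusters were intronic. The share was 51 of 53 in WT-rep1 (96.2%, 95% Wilson interval 87.2 to 99.0%) and 17 of 17 in WT-rep2 (100%, 81.6 to 100%), a mean of 98.1 ± 2.67% (SD, n = 2). Over all clusters introns held 84.1% and 83.1%. In WT-rep1 the lower limit of the set's interval lay above the share of all clusters, and in WT-rep2 it did not. All clusters include those outside annotated genes, which the members could not be by the way they were chosen. The shares therefore have unlike bases, and no excess of intronic clusters is read from them. Every cluster of EWSR1 and VCP was intronic in both WT libraries. Many clusters of one gene share that gene, so these intervals describe clusters and not independent transcripts.

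Both exceptions were in WT-rep1 and were weak or moderate. TIA1 had a cluster of 31 reads, made of 4 distinct read sequences, in the 3' untranslated region, at 99.7% of the gene's length. ATXN2 had a cluster of 6 reads, all of 1 read sequence, in the coding sequence. Their sequences are shown as the only exonic contacts of the set, with TCTT in capitals as above; for TIA1 the 30 nt printed are those around the highest point of the cluster.
TIA1, 3' untranslated region, chr2:70209551-70209580, minus strand: ttTCTTtataggaggttattacatttcatt
ATXN2, coding sequence, chr12:111488752-111488780, minus strand: ttacagccaagttctacttctgaatctat

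Along the genes the clusters were laid out differently. VCP clusters lay in the upstream part only, between 6.53 and 41.3% of the gene's length in WT-rep1 and at 8.46 and 9.52% in WT-rep2. EWSR1 clusters lay between 5.03 and 63.9%, with the overlapping pair at 17.8%. TIA1 clusters fell into 2 main regions. In WT-rep1, 5 of the 9 lay in the first 10% of the gene. The pair at 71.2% lay beside WT-rep2 clusters at 72% (89 reads, 6 distinct read sequences) and 76.3% (180 reads, 5 distinct read sequences). ATXN2 clusters were spread over the whole gene, from 2.01 to 93.0% in WT-rep1, whereas 5 of the 6 in WT-rep2 lay beyond its midpoint. Upstream of the midpoint lay 35 of 53 member clusters in WT-rep1 (66.0%, 95% Wilson interval 52.6 to 77.3%) and 7 of 17 in WT-rep2 (41.2%, 21.6 to 64.0%). The same shares over all protein-coding clusters were 60.7% and 58.2%, inside both intervals.

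**Figure D2:**
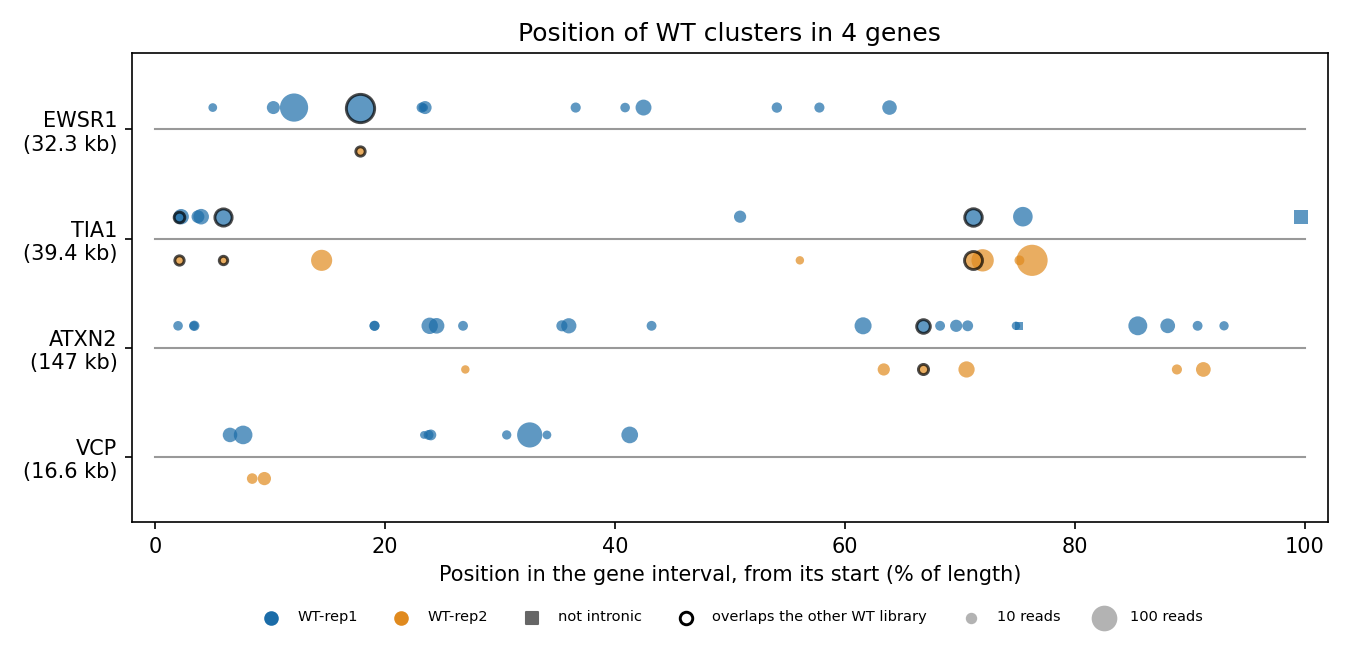
Position of each WT cluster along the 4 genes that had one, as a percentage of the RefSeq gene interval from the start of the gene; WT-rep1 is above the line and WT-rep2 below it, symbol area grows with reads, squares are not intronic and black rings overlap the other library. TIA1 has 3 ringed pairs, EWSR1 and ATXN2 have 1 each, and VCP has none.

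Agreement by position was measured as an overlap of at least 1 nt on the same strand. Of the 17 member clusters of WT-rep2, 5 overlapped a WT-rep1 cluster (29.4%, 95% Wilson interval 13.3 to 53.1%). Over all clusters of WT-rep2 the share was 19.5%, inside that interval. Equal numbers of clusters were also used, by keeping the WT-rep1 clusters with the most reads and not a random sample. The share was then 3 of 17 (17.6%) for the members and 11.8% for all clusters. In the other direction 5 of 53 overlapped (9.43%, 4.10 to 20.3%), against 6.0% of all WT-rep1 clusters. By gene, 3 of the 8 TIA1 clusters, 1 of the 6 in ATXN2, the single EWSR1 cluster and none of the 2 in VCP were found again. TIA1 therefore gave 3 of the 5 overlaps.

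The 12 member clusters of WT-rep2 without an overlap lay a median of 272 nt from the nearest WT-rep1 cluster on their strand, where the 21860 such clusters of the whole library lay a median of 1076 nt away. Within 500 nt lay 7 of the 12 (58.3%), against 39.0% of all such clusters. By gene these were both VCP clusters, the nearer at 97 nt, 3 of 5 in TIA1 and 2 of 5 in ATXN2, the nearer of which was 20 nt away. Distances are shorter in genes with more clusters per length, and all 4 genes lay above the median in clusters per length, so these values do not compare agreement between genes.

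Reads per cluster in these genes were lower than in WT-rep2 as a whole. The median was 17.0 reads in WT-rep1 (range 5 to 147), where all clusters had 20, and 15.0 in WT-rep2 (range 7 to 180), where all clusters had 39.0. In EWSR1 the 2 strongest clusters of WT-rep1 held 146 and 147 reads, and the median of the 13 was 14.0. In VCP 1 cluster held 115 of the 307 reads of WT-rep1, or 37.5%. In ATXN2 the strongest of the 22 clusters of WT-rep1, with 62 reads, held 12.8% of the gene's reads, and the median was 13.5. In TIA1 the strongest of 9, with 67 reads, held 19.6%. Such a share falls as the number of clusters rises, so it does not rank the genes by evenness. TIA1 had medians of 39.0 reads in WT-rep1 and 33.5 in WT-rep2. There were 7.09 reads per distinct read sequence in the set in WT-rep1 and 12.5 in WT-rep2, against 7.58 and 17.9 over all clusters, so read numbers rest on few distinct fragments: 230 read sequences in all for WT-rep1 and 50 for WT-rep2.

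**Figure D3:**
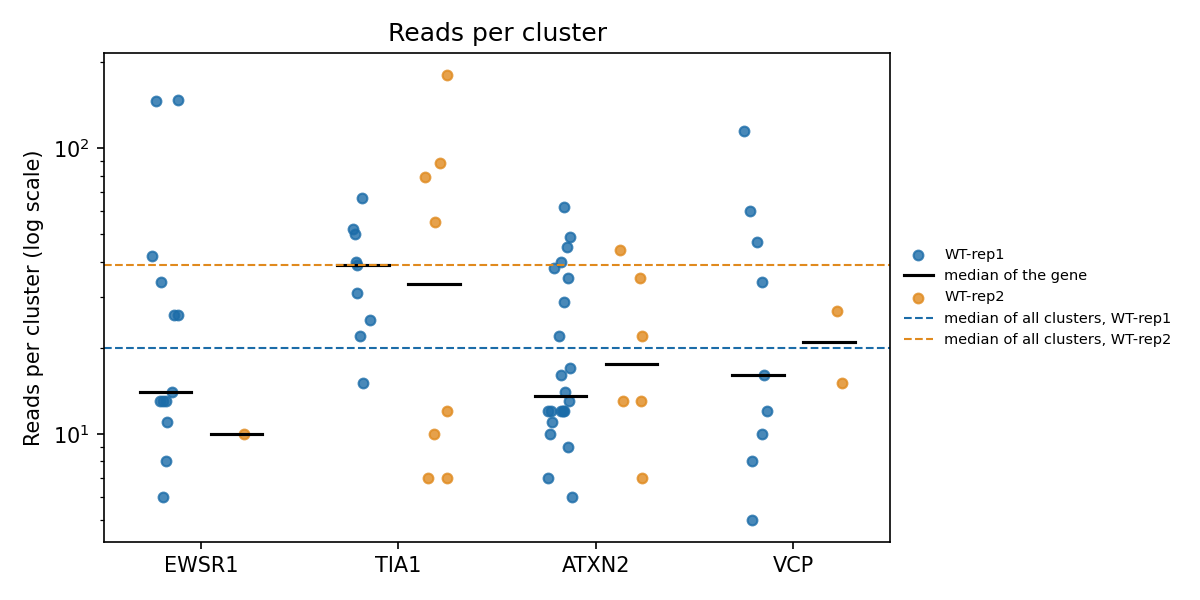
Reads per cluster on a log scale for each WT cluster of the 4 genes, with the median of each gene as a black bar and the median of all clusters of each library as a dashed line (20 reads in WT-rep1, 39.0 in WT-rep2). The gene medians of WT-rep2 lie below its dashed line, while EWSR1, TIA1 and VCP each have single clusters above 100 reads in a WT library.

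T-to-C changes in the member clusters were at the level of the libraries. Of the T positions read in them, 7.34% were converted in WT-rep1 and 8.19% in WT-rep2, a mean of 7.76 ± 0.597% (SD, n = 2), where all clusters had 7.98% and 7.55%. By gene the value ran from 6.62% in VCP to 8.15% in TIA1 in WT-rep1, and from 7.01% in VCP to 8.95% in ATXN2 in WT-rep2. The clusters were selected by the authors on conversion, with at least 2 converted positions in each, so the levels are a description.

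The deposited share of reads with a change differed between the clusters found again and the rest. In WT-rep1 the 5 clusters that overlapped WT-rep2 had 61.5 to 78.2% of reads with a change (median 66.7%), and the other 48 ranged from 35.7 to 100% with a median of 93.7%. The same direction was seen over all WT-rep1 clusters, with medians of 83.3% for the 5235 that overlapped and 94.6% for the 81995 that did not. In WT-rep1 the overlapping member clusters also had more converted positions, with a median of 7 against 2, more reads, with medians of 50 and 16, and more distinct read sequences, with medians of 7 and 3. Whether these differences come from depth was not tested. In WT-rep2 the medians were 92.3% for the 5 overlapping clusters and 94.1% for the other 12, with overlapping ranges. There the reads ran the other way, with medians of 10 for the overlapping clusters and 24.5 for the others, and converted positions had a median of 2 in both.

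**Figure D4:**
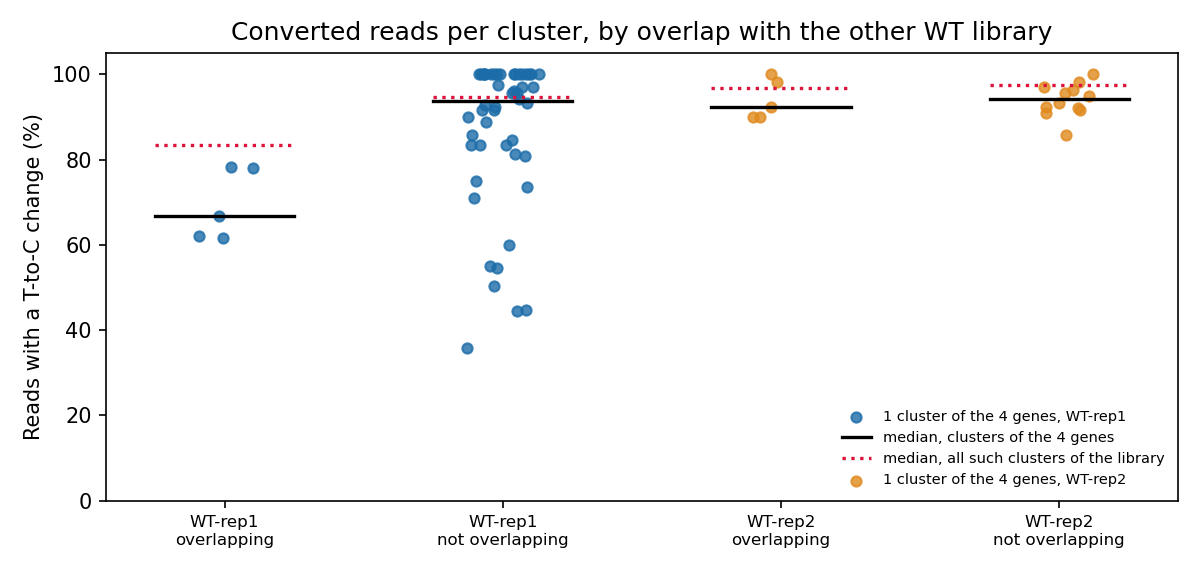
Share of converted reads (those with a T-to-C change) in each WT cluster of the 4 genes, split by library and by overlap with the other WT library; black bars are medians of these clusters and dotted lines are medians of all such clusters of the library. The 5 overlapping clusters of WT-rep1 lie between 61.5 and 78.2%, and the 12 clusters of WT-rep2 that did not overlap lie between 85.7 and 100%.

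The base composition of the member clusters was pyrimidine-rich, as in the libraries. T made up 41.8% of their bases in WT-rep1 and 41.4% in WT-rep2, a mean of 41.6 ± 0.290% (SD, n = 2), and over all clusters 40.1% and 41.8%. T and C together made up 67.3% and 70.4% of member bases, against 68.0% and 68.7%. By gene in WT-rep1, T ran from 36.2% in VCP to 46.0% in EWSR1. The last base was G in 42 of 53 clusters (79.2%) in WT-rep1 and in 15 of 17 (88.2%) in WT-rep2, where all clusters had 73.5% and 94.4%, which is the base after which RNase T1 cuts.

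Short words were counted in the sense strand of each cluster only, and the word TCTT is part of both ATCTT, the AUCUU word that MATR3 prefers in vitro, and TTCTT. TCTT was in 24 of 53 member clusters of WT-rep1 (45.3%, 95% Wilson interval 32.7 to 58.5%) and in 10 of 17 of WT-rep2 (58.8%, 36.0 to 78.4%). Clusters of the same lengths held it in 57.8% and 58.8%, inside both intervals. TTCTT was in 32.1% and 23.5% of member clusters, against 30.4% and 31.0%. ATCTT differed between the libraries: it was in 1 of 53 member clusters of WT-rep1 (1.89%, 0.334 to 9.94%), below the 14.8% of clusters of the same lengths, and in 5 of 17 of WT-rep2 (29.4%, 13.3 to 53.1%), where clusters of the same lengths held it in 15.3%. TIA1 held the single one of WT-rep1 and 4 of the 5 of WT-rep2.

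U runs were counted because TIA1 binds them, and GU repeats because TDP-43 does. TTTTT was in 16 of 53 clusters of WT-rep1 (30.2%, 19.5 to 43.5%), where 18.3% of clusters of the same lengths held it, and in 5 of 17 of WT-rep2 (29.4%, 13.3 to 53.1%), against 19.3%. EWSR1 gave 8 of the 16. TGTGTG was in 0 of 53 and 0 of 17 member clusters and was rare throughout, in 0.444% and 0.431% of clusters of the same lengths. These are matches of letters and not shown to be binding sites.

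Genes with the closest pattern of reads were named by the sum, over the 3 libraries, of absolute differences in log2(reads in clusters + 1). NUMA1 was closest to EWSR1, with 471 reads in WT-rep1, 10 in WT-rep2 and 0 in KO (sum 0.0831). NOTCH2 was closest to ATXN2, with 482, 138 and 0 reads (0.0451), and DENND4C to TIA1, with 344, 444 and 0 reads (0.0289). UBXN4 was closest to VCP, with 303, 40 and 0 reads (0.0876). A likeness over 3 libraries is weak and is given as a description only.

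Other genes linked to ALS were read from a list of 35. Of these, 25 had a WT cluster, 17 in both WT libraries and 8 in WT-rep1 only, and 10 had none. Of all 20052 protein-coding genes, 44.4% had a WT cluster. Both libraries held 68.0% of the 25, against 56.9% of all genes with a WT cluster. Nothing particular to this list is read from these counts. MATR3 itself had the most clusters of the list, with 53 in WT-rep1, 26 in WT-rep2 and none in KO. It was followed by ELP3 (18 and 6 clusters), a subunit of the Elongator complex, the kinase NEK1 (19 and 4), the receptor ERBB4 (15 and 7) and the membrane protein VAPB (17 and 4). HNRNPA1, an abundant splicing regulator, had 5 clusters in WT-rep1 and none in WT-rep2.

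Among close relatives of the members, TIAL1, the paralog of TIA1, had 26 clusters with 1411 reads in WT-rep1 and 7 with 666 reads in WT-rep2. Over its 23.5 kb that is a mean of 70.2 clusters per 100 kb, where TIA1 had 21.6. TIA1 had 9 and 8 clusters over 39.4 kb, so the gap between the means came mostly from WT-rep1. ATXN2L, the paralog of ATXN2, had 1 cluster of 9 reads, in WT-rep1. ATXN1 had 11 and 4 clusters and ATXN3 had 0 and 1; both are polyglutamine disease genes and not sequence relatives of ATXN2. The list held 7 genes, the members EWSR1 and TAF15 among them. Of the 7, 6 had a WT cluster, where 44.4% of protein-coding genes had one. Clusters in both WT libraries were found for 3 of these 6, EWSR1 included, against 56.9% of all genes with a WT cluster. Nothing particular to the list is read from these counts.

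TIA1 and ATXN2 act with other proteins in stress granules. Of 18 stress granule genes, 17 had a WT cluster, where 44.4% of protein-coding genes had one, and 15 had one in both WT libraries, or 88.2% of the 17 against 56.9% of all genes with a WT cluster. Among those with the most clusters were the translation repressor PUM2 (46 and 23), USP10 (34 and 11), TIAL1 and UBAP2L (18 and 8). PUM2 was the only gene of this list with a KO cluster, of 954 reads. Of 22 genes for cofactors of VCP, 18 had a WT cluster and 13 had one in both WT libraries (72.2% of the 18), beside the same shares of 44.4% and 56.9%. Both lists were chosen with earlier results of these data known, and nothing particular to them is read from these counts. FAF1, over 523 kb, had 79 and 26 clusters, NPLOC4, which forms with UFD1 the adaptor for ubiquitin chains, had 13 and 3, PLAA 12 and 4, and UBXN4 12 and 2.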

How the data were processed

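PAR-CLIP clusters of 3 HAP1 libraries were analysed. Per the submitters' processing notes, cutadapt 1.8.3, Bowtie 1.1.2 and the builds hg38 and GRCh38.p5 were named, with no role given; the cluster caller and its filters are not given in the sources used here. The deposited counts per cluster (reads, distinct read sequences, converted positions and T events) were read as raw numbers, per the file headers and because all are whole. By their headers, the deposited fraction columns hold, per cluster, the share of its reads that were converted or ended in G. On the minus strand the latter did not match the last base of the cluster sequences. Clusters were called by the authors in each library.

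Members were taken by gene name; the members, lists and words were chosen with earlier results of these data known. Named clusters were, per gene, the overlapping WT pair with the highest geometric mean of reads (here all pairs are shown) or else the strongest cluster of each library, and all clusters outside introns. In addition, the strongest clusters of TIA1, EWSR1 and ATXN2 with no counterpart were chosen after their values were seen. Named genes were the members, the gene nearest to each in reads, and up to 5 per list with the most WT clusters; HNRNPA1, ATXN2L and ATXN3 were added after their values were seen. Some genes of the lists are counted but not reported here by name. Shares carry 95% Wilson or exact intervals. RefSeq genes of GRCh38.p14 gave lengths and relative positions. No test was run. The replicates are described as independent, so the SD of n = 2 is their spread only. Overlap calling was tested on simulated data: 100% of 1000 planted overlaps among 2000 intervals were recovered. Python 3.11.15, numpy 2.4.6, pandas 2.3.3 and scipy 1.17.1 were used.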

Additional observations from a re-analysis of the deposited data

How the results depend on the processing

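Results were recomputed with at least 10 reads or 3 converted positions per cluster, and with equal numbers of clusters from each WT library. For equal numbers, the WT-rep1 clusters with the most reads were kept. Further settings were genes assigned by position, each WT library left out, other overlap rules, medians over clusters and sequences without 3 nt at each end. The 500 nt distance was chosen after seeing the data. Of 38 alternative values of the 6 main results, 27 were labelled as kept and 11 as moved. Counts of clusters and genes were judged by a fixed ratio to the main value, and the agreement by its interval. Intronic share, conversion and T share were judged by the SD of the WT libraries. With 2 WT libraries, leaving either out cannot move a mean beyond that SD. Those labels were therefore fixed in advance and say nothing about stability. The mean number of member clusters, 35.0, fell to 14.5 with at least 3 converted positions and to 18.5 with equal numbers of clusters, and it ran from 17.0 to 53.0 with either WT replicate left out. With at least 3 converted positions, 1 gene in place of 4 had clusters in both WT libraries, and the position agreement was 0% in place of 29.4%, on 3 clusters of WT-rep2. With equal numbers of clusters the agreement was 17.6% (3 of 17), where all clusters gave 11.8%. The agreement was 9.43% as a share of WT-rep1 clusters and 70.6% within 500 nt. The T share of 41.6% was 42.0% with at least 10 reads, 42.7% with at least 3 converted positions and 42.4% without 3 nt at each end. Of 36 values for single genes, 13 moved; those of TIA1 moved only with at least 3 converted positions, to 4.50 clusters. No paired analysis was possible because no result came from a test and the KO label carries no replicate number. With 842 clusters in KO, a set of this size could not be compared with WT.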

Other observations

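A column of the tables that enters no comparison above, the deposited share of reads that end in G, differed by strand. In WT-rep1 it was above 50% in 74.0% of the 46273 clusters on the plus strand and in 1.36% of the 40957 on the minus strand. The cluster sequences themselves ended in G in 67.2% of plus-strand and 80.5% of minus-strand clusters. WT-rep2 showed the same, with 95.5% and 1.74% by the deposited share and 93.1% and 95.9% by the sequences. The genes above follow their strand: 12 of the 13 EWSR1 clusters of WT-rep1 (plus strand) had a share above 50%, but 1 of the 40 clusters of TIA1, ATXN2 and VCP (minus strand) did, although 33 of these 40 sequences end in G. The deposited share was therefore not used for genes on different strands.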
